A study of Mus musculus with 8 samples.

Results

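Collagens are the main structural proteins of the extracellular matrix, and the genes described here are those of the mouse collagen chains, read on 8 gene expression arrays of uterus. Genes were taken by symbol, Col with a type number, the letter a and a chain number. The array carried 44 such genes among 19938 genes with a single symbol on their probe sets, 11 of them fibrillar, 6 of basement membrane type IV, 6 of beaded filament type VI, 9 of the fibril-associated collagens with interrupted triple helices (FACIT), 3 of the hexagonal networks, 2 multiplexins, 4 transmembrane collagens and 3 others. The pregnant group held 4 uteri of C57BL/6 females that had been mated with fertile stud males, taken on day 3 at 22 h with the mating night as day 0. Blastocysts were flushed from these uteri and no blue dye site, the mark of an attached embryo, was seen. The pseudopregnant group held 4 uteri of C57BL/6 females mated with vasectomised males and taken at the same hour. Both groups went through mating, and the fertility of the male and the presence of embryos cannot be told apart between them. The whole uterus was used, so fewer cells of a type and less RNA per cell cannot be told apart.

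Each collagen molecule is a triple helix of chains that wind around one another, in a repeat that returns to the small residue glycine. Fibrillar chains form the tensile fibres of connective tissue, type IV chains form the sheet under epithelia and around vessels, muscle and fat cells, and type VI chains form thin beaded filaments between cells and fibres. In the uterus these proteins fill the endometrial stroma and the muscle wall, and the fibrils of the stroma are remodelled when stromal cells decidualise after attachment.

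Values are log2 of the intensities that the authors deposited, read from the probe set with the highest mean over all 8 arrays for each gene, and given in the order of replicates 1 to 4. The 2 arrays farthest out on the first principal component were pregnant replicate 2 and pseudopregnant replicate 1. A probe set's brightness depends on its probes as well as on its RNA, so the levels of different genes are not ranked. A gene counts as measured where its signal exceeded the 40th percentile of an array on at least 4 of 8 arrays, and 41 of the 44 did. The exceptions were Col19a1, a FACIT collagen, Col10a1, a chain of growth plate cartilage, and Col28a1. Col19a1 read 4.51 to 4.71 in pregnant and 4.76 to 4.86 in pseudopregnant uteri, Col10a1 4.09 to 4.50 and 4.34 to 4.59, and Col28a1 4.84 to 5.23 and 5.08 to 5.54. Of the 41 measured genes, 39 lay above that line on all 8 arrays, Col17a1 on 7, and Col6a5 on 4, of which 2 were in each group.

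No collagen gene passed the threshold. In limma's fit across 17494 probe sets, 0 of 41 had an adjusted p under 0.05, where 1.82% of all probe sets tested passed (1.41% higher and 0.412% lower). With no adjustment, 11 of 41 (26.8%) had a p under 0.05, 6 higher and 5 lower in the pregnant group, against 23.7% of all probe sets (14.3% higher and 9.43% lower), which is close to that background. The median difference over the 41 genes was -0.05 on the log2 scale, and 0.00 (0.0019) over all probe sets tested. Differences ran between -0.42 for Col6a4 and 0.38 for Col12a1, and the second of these was 0.15 without pregnant replicate 2 and pseudopregnant replicate 1. The groups did not overlap for 4 genes, Col6a1 and Col11a1 above and Col6a4 and Col20a1 below in the pregnant group, where 14.6% of all probe sets tested did not overlap (9.23% above and 5.38% below). With pregnant replicate 2 and pseudopregnant replicate 1 both left out, an alternative chosen after seeing the data, 0 of 40 measured genes passed, and the median was -0.01. The p-values measure the spread between 4 animals a group.

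**Figure D1:**
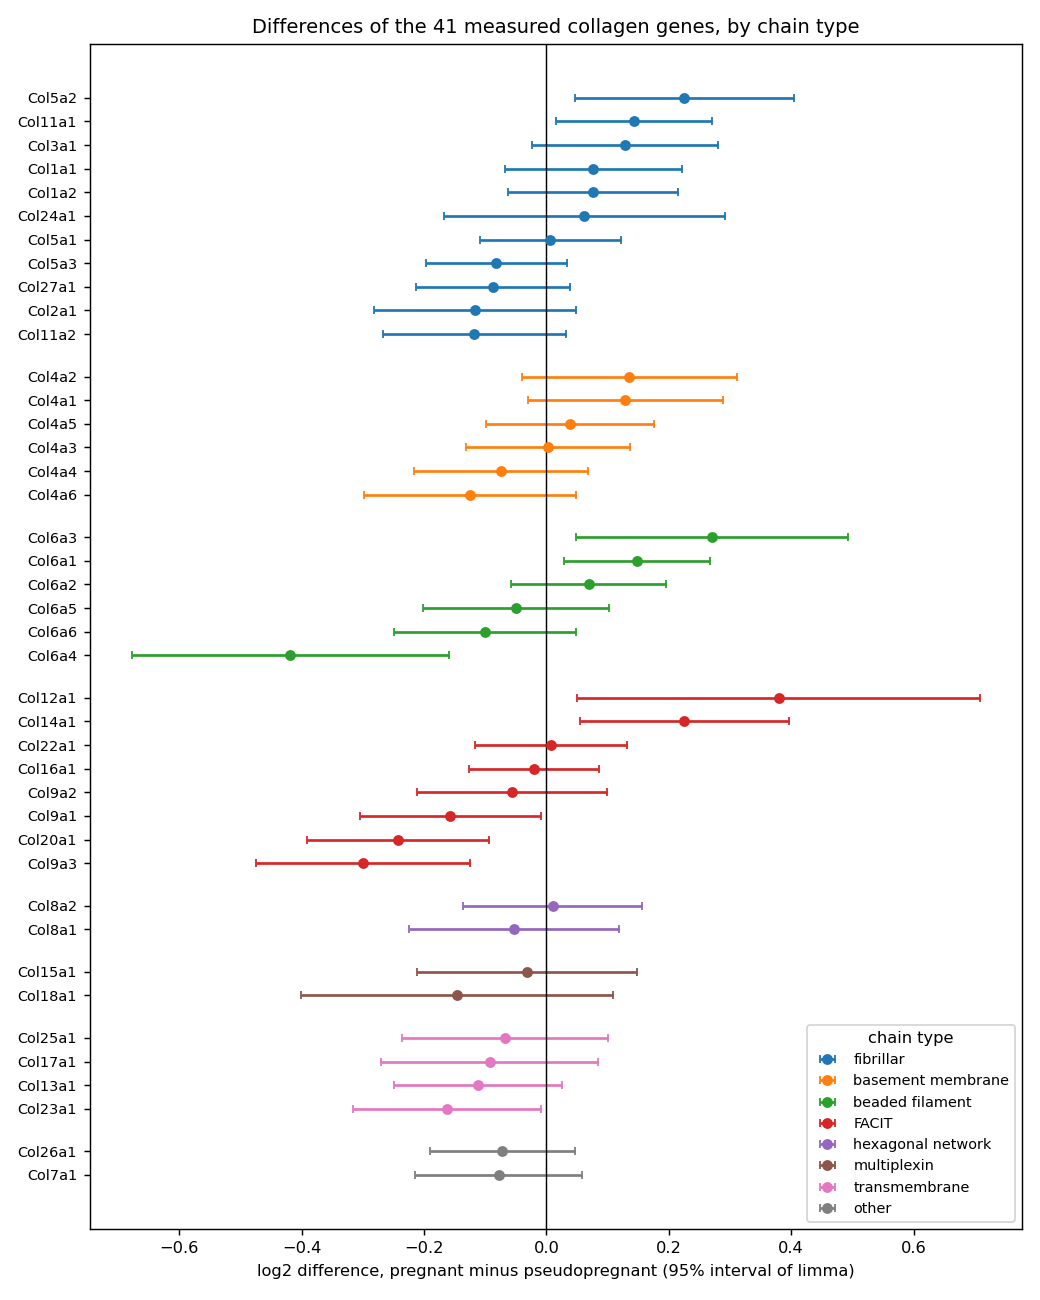
Each point is the log2 difference, pregnant minus pseudopregnant, of 1 of the 41 measured collagen genes, the bar is its 95% interval from limma, and colours mark the chain type. Points lie between -0.42 (Col6a4) and 0.38 (Col12a1), and none passed the adjusted threshold.

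The sequences upstream of a few of these genes are shown for the chains on which the comparisons below turn. They are RefSeq windows of build GRCm38.p6 that run from 250 bases before to 50 bases after the annotated start of the gene. Windows were found for 35 of the 44 genes. Capitals mark every CCAAT box, every GGGCGG box and every TATAAA box on either strand, so that the reverse complement of each is in capitals too. CCAAT is the core of the box bound by the factor NF-Y, which is known to act in the type I collagen promoters, GGGCGG is the core of the box bound by Sp1 and its relatives, and TATAAA is the TATA box. Col4a1 and Col4a2 lie head to head on chromosome 8, and their windows share 78 bases, with annotated starts 21 bases apart. The start of Col4a2, on the plus strand, has the lower coordinate, so the annotated transcripts overlap at their starts. Col1a2 is a chain of type I fibrils, and Col6a3 and Col6a4 are alternative chains of type VI.
Col4a1 (chr8:11312777-11313076, minus strand): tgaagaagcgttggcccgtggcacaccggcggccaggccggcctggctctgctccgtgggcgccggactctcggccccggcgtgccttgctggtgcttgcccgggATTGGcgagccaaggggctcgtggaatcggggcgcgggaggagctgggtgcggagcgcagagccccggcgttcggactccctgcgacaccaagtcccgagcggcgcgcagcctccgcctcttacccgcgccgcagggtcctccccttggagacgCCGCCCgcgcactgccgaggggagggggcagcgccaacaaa
Col4a2 (chr8:11312555-11312854, plus strand): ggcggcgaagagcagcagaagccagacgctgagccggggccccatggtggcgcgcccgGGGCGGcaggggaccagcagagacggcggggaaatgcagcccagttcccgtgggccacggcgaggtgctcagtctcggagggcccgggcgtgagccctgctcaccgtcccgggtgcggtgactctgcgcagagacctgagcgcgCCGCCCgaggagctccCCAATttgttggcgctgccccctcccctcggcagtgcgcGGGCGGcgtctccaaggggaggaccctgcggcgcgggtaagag
Col1a2 (chr6:4505368-4505667, plus strand): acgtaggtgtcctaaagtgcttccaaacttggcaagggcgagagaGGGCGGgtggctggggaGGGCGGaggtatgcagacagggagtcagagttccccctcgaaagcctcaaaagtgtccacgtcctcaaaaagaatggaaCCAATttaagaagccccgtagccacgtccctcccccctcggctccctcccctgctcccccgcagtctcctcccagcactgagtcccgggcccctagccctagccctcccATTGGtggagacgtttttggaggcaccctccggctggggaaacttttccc
Col6a3 (chr1:90843922-90844221, minus strand): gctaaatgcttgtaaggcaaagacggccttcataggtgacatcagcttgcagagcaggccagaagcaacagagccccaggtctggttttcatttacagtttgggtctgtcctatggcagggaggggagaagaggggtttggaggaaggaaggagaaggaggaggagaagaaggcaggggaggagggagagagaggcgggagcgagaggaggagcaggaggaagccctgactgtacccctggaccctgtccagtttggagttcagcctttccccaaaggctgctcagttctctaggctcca
Col6a4 (chr9:106096642-106096941, minus strand): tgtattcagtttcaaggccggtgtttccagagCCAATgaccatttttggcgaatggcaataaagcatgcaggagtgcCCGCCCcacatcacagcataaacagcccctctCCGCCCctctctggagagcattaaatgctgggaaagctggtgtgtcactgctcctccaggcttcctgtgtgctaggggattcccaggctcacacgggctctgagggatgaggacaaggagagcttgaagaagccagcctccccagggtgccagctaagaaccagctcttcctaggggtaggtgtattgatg

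The Col1a2 window held 2 CCAAT and 2 GGGCGG, the Col4a1 window 1 of each, and the Col4a2 window 1 CCAAT and 3 GGGCGG. The GGGCGG of the Col4a1 window lies in the 78 shared bases. It is the same site as the last GGGCGG of the Col4a2 window and is counted in both. Col6a4 had 1 CCAAT and 2 GGGCGG in its window, while none of these letters stood in that of Col6a3. TATAAA was in none of the 5 windows. Over the 38 collagen windows (some genes have more than 1), GGGCGG stood in 60.5%, CCAAT in 34.2% and TATAAA in 13.2%, against 35.7%, 37.4% and 13.6% of all 32851 windows in the RefSeq table. These shares are counts of letters and are not evidence of binding.

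The fibrillar collagens were all measured. Of the 11 genes, 0 passed the threshold, 7 had differences above 0, and their median was 0.06. Type I collagen is made of Col1a1 and Col1a2 chains and is the main fibre of most connective tissues, with type III, made of Col3a1 alone, beside it in soft organs. Col1a1 read 11.06, 11.13, 10.94 and 11.22 in the 4 pregnant uteri, against 10.96, 11.01, 11.05 and 11.05 in the 4 pseudopregnant uteri. The highest and the lowest of the 8 values were both pregnant, and the groups overlapped. The difference was 0.08 ± 0.065 (SE), with a 95% interval of -0.07 to 0.22 and a limma adjusted p of 0.50. Its interval ended at a 1.17-fold higher level in pregnant uteri.

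Col1a2 had 10.63, 10.60, 10.49 and 10.71 in pregnant uteri, against 10.44, 10.51, 10.61 and 10.57 in pseudopregnant uteri, and differed by 0.08 ± 0.062 (SE, limma adjusted p = 0.48). For Col3a1 the pregnant values were 10.35, 10.26, 10.19 and 10.48 and the pseudopregnant values 10.12, 10.20, 10.20 and 10.23. Pregnant replicates 1, 2 and 4 lay above all pseudopregnant arrays and pregnant replicate 3 lay among them. The Col3a1 difference was 0.13 ± 0.068 (SE, limma adjusted p = 0.28), and 0.07 without pregnant replicate 4. None of these 3 probe sets was dim: their lowest rank on any array was percentile 97.9, for Col3a1.

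Type V chains join type I fibrils and limit their width. Col5a2 had the smallest p of the fibrillar genes, with 7.76, 7.72, 7.73 and 7.95 in pregnant uteri and 7.40, 7.58, 7.54 and 7.73 in pseudopregnant uteri. Only pseudopregnant replicate 4 reached into the pregnant range. The difference was 0.23 ± 0.080 (SE), a 1.17-fold higher level, with an unadjusted p of 0.019 and an adjusted p of 0.14 in limma. Its partner Col5a1 showed no such gap, at 7.40, 7.39, 7.33 and 7.43 in pregnant against 7.33, 7.33, 7.41 and 7.45 in pseudopregnant uteri. The Col5a1 difference was 0.01, with a 95% interval of -0.11 to 0.12, and its sign turned in 7 of 18 alternatives. Col11a1, a chain of the thin fibrils of cartilage that is also made in other tissues, had groups that did not overlap, with 6.53, 6.65, 6.50 and 6.59 in pregnant against 6.40, 6.34, 6.46 and 6.50 in pseudopregnant uteri. Pregnant replicate 3 and pseudopregnant replicate 4 met to 2 decimals. The gene differed by 0.14 ± 0.057 (SE, limma adjusted p = 0.17).

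The remaining fibrillar genes lay near 0 or below it. Col24a1 differed by 0.06, and pregnant replicate 2 held its highest value, 6.48, against 5.95 to 6.19 on the other pregnant arrays. Below 0 were Col5a3 (-0.08), Col27a1 (-0.09), the cartilage collagen Col2a1 (-0.12) and Col11a2 (-0.12), with adjusted p between 0.31 and 0.37 in limma.

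**Figure D2:**
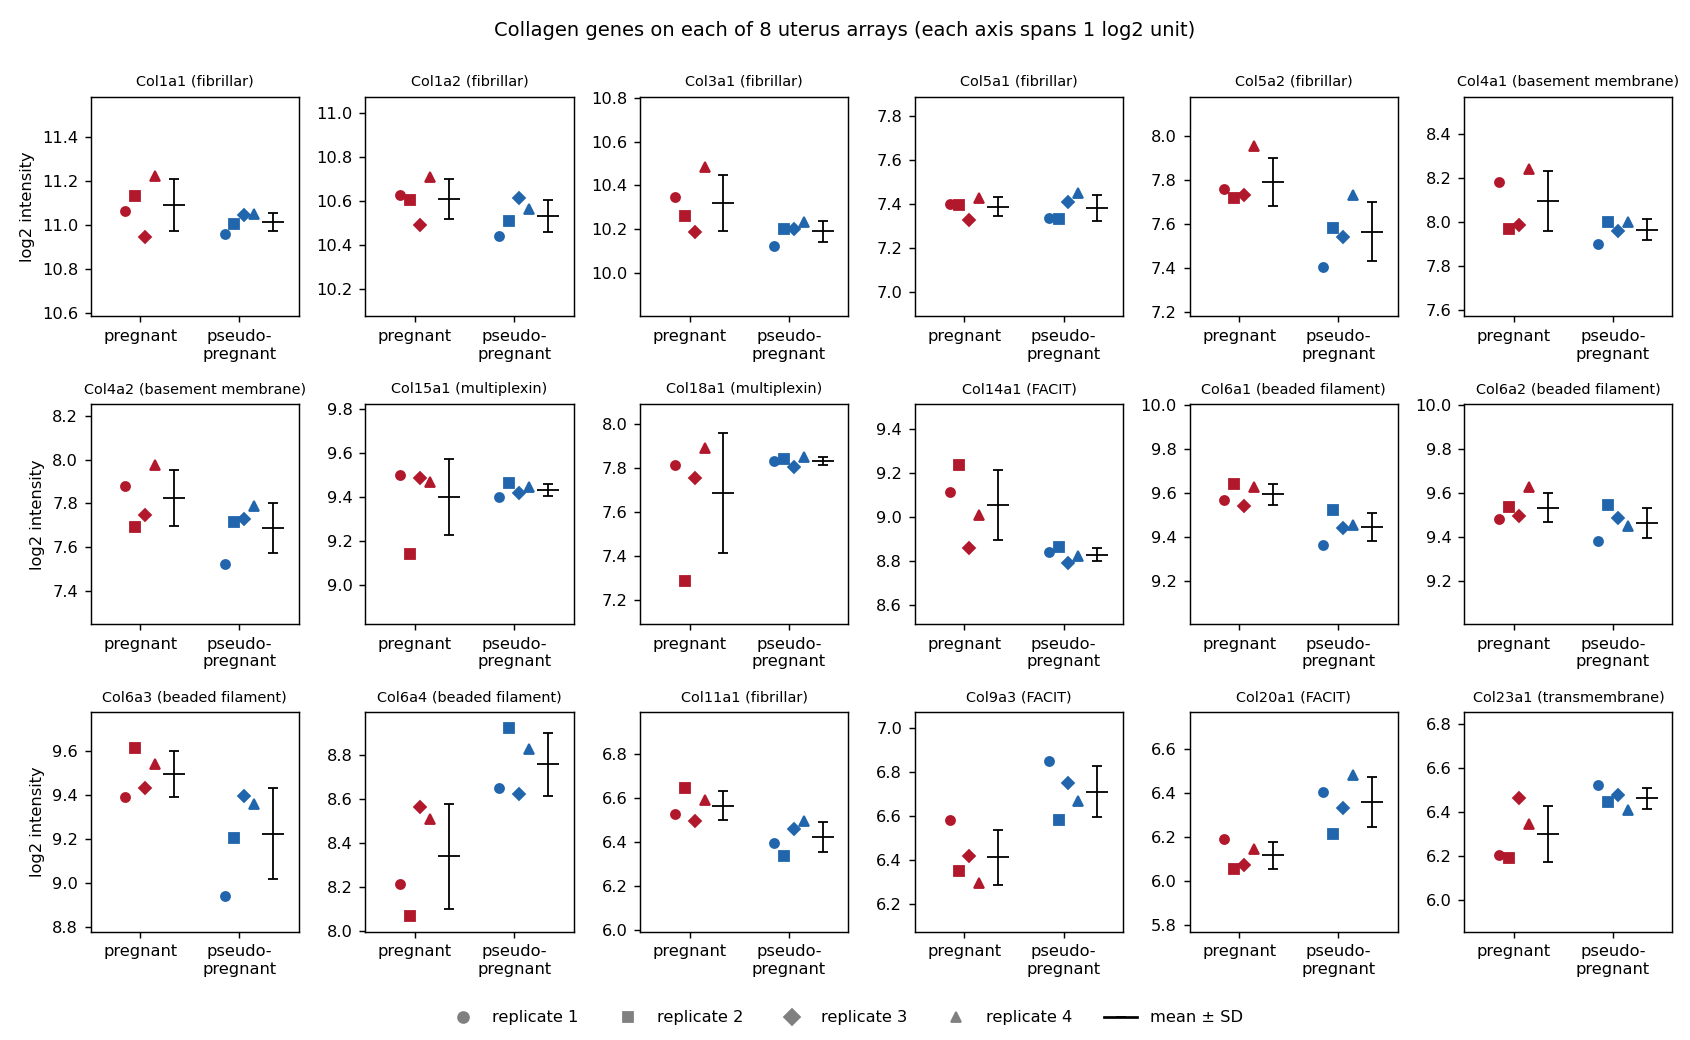
Each panel gives the log2 intensity of 1 collagen gene on every array, pregnant in red on the left and pseudopregnant in blue on the right, with a symbol for each replicate and a bar for mean ± SD (n = 4). Every panel spans the same height. Groups are apart for Col6a1, Col11a1, Col6a4 and Col20a1 and overlap in the other panels, and pregnant replicate 2 lies low for Col15a1 and Col18a1.

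Type IV chains of basement membranes come in 3 pairs of head to head genes. Col4a1 and Col4a2 make the form found under nearly all epithelia and vessels, Col4a3, Col4a4 and Col4a5 make a form best known from the kidney filter, and Col4a5 with Col4a6 makes a form found around smooth muscle. Of the 6 genes, 0 passed the threshold, none had an unadjusted p under 0.05 (limma), where 23.7% of all probe sets did, and the median was 0.02. Col4a1 had 8.18, 7.97, 7.99 and 8.24 in pregnant uteri, against 7.90, 8.0, 7.96 and 8.0 in pseudopregnant uteri. Pregnant replicates 1 and 4 stood above all other arrays, and pregnant replicates 2 and 3 lay among the pseudopregnant ones. The difference was 0.13 ± 0.071 (SE, limma adjusted p = 0.30), and 0.08 without pregnant replicate 4.

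Col4a2 likewise had its highest values in pregnant replicates 1 and 4, with 7.88, 7.69, 7.75 and 7.98 in pregnant uteri and 7.53, 7.71, 7.73 and 7.79 in pseudopregnant uteri, and differed by 0.14 ± 0.079 (SE, limma adjusted p = 0.32). That difference was 0.08 (0.085) without pregnant replicate 4 and 0.08 (0.081) without pseudopregnant replicate 1. The Col4a3 difference was 0.00 with a 95% interval of -0.13 to 0.14, Col4a4 differed by -0.07 and Col4a5 by 0.04. For Col4a6 the difference was -0.13, with 6.53 to 6.67 in pregnant against 6.51 to 6.85 in pseudopregnant uteri. Col4a3 and Col4a4 read near the filter line, 5.39 to 5.61 and 5.66 to 5.80 in pregnant uteri, where arrays understate changes.

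Genes that lie head to head were set against each other across the 8 arrays, together with the pairs Col1a1 and Col1a2 and Col5a1 and Col5a2, 5 pairs in all. Col4a1 and Col4a2 had a Pearson r of 0.93 (exact permutation p = 0.00067, adjusted over 5 pairs 0.0034) and a Spearman rho of 0.81 (exact permutation p = 0.022, adjusted 0.054). Without the 2 arrays farthest from the median of Col4a1, r was 0.92 (n = 6), and with each group centred on its mean it was 0.90. Col1a1 and Col1a2, which lie on different chromosomes (11 and 6), had r = 0.91 (exact permutation p = 0.0018, adjusted 0.0044) and rho = 0.86 (exact permutation p = 0.011, adjusted 0.054). Their r was 0.82 without the 2 farthest arrays and 0.88 with group means removed. Col5a1 and Col5a2 had r = 0.54 (exact permutation p = 0.17, adjusted 0.28) and rho = 0.45 (exact permutation p = 0.27, adjusted 0.45), and r was 0.72 without the 2 farthest arrays. After adjustment the first and second of these pairs passed 0.05 by Pearson's r and none did by Spearman's rho.

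The other head to head pairs gave no such relation. Col4a3 and Col4a4 had r = -0.26 (exact permutation p = 0.53, adjusted 0.67) and rho = -0.29 (exact permutation p = 0.50, adjusted 0.63), and r turned to 0.62 without the 2 farthest arrays. Col4a5 and Col4a6, whose annotated starts lie 1343 bases apart on the X chromosome, had r = -0.08 (exact permutation p = 0.85, adjusted 0.85) and rho = -0.02 (exact permutation p = 0.98, adjusted 0.98), with r = 0.46 without the 2 farthest arrays. Over all 820 pairs of the 41 genes the median r was 0.03, and 9 pairs lay above 0.9. All these values share the 8 arrays and their common normalization.

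**Figure D3:**
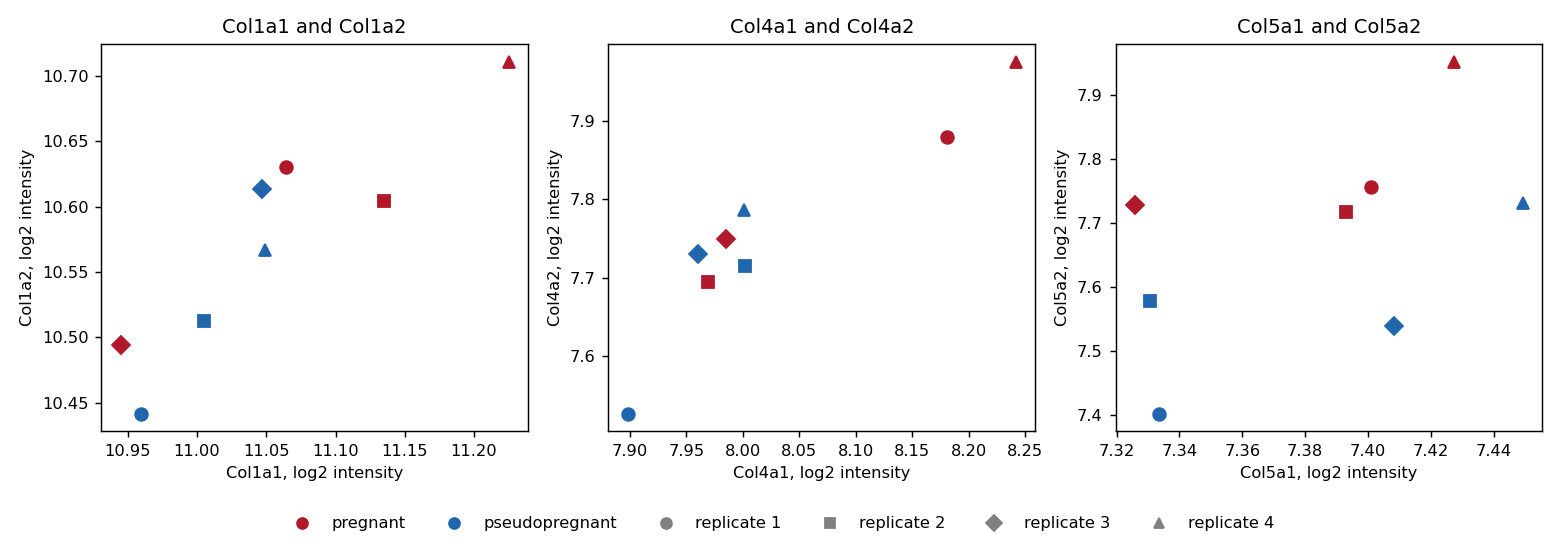
Each point is 1 array, with pregnant in red and pseudopregnant in blue, and the axes give the log2 intensities of 2 chains of one collagen type. The points of Col1a1 with Col1a2 (r = 0.91) and of Col4a1 with Col4a2 (r = 0.93) lie along a line, and those of Col5a1 with Col5a2 (r = 0.54) scatter more widely.

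Type VI filaments are built of a Col6a1 chain, a Col6a2 chain and a longer chain, which is Col6a3 in most tissues and can be Col6a4, Col6a5 or Col6a6 instead. Of these 6 genes 0 passed the threshold, and the median was 0.01. In limma 3 of them had an unadjusted p under 0.05, of which 2 were higher, where 23.7% of all probe sets did. Col6a1 had 9.57, 9.64, 9.54 and 9.63 in pregnant uteri, against 9.37, 9.52, 9.44 and 9.45 in pseudopregnant uteri. All 4 pregnant values lay above all 4 pseudopregnant values, by a narrow margin between pregnant replicate 3 and pseudopregnant replicate 2. The difference was 0.15 ± 0.053 (SE), or 1.11-fold, with a limma adjusted p of 0.14. Col6a2 differed by 0.07 ± 0.057 (SE, adjusted p = 0.48 in limma), with 9.48, 9.54, 9.49 and 9.63 in pregnant against 9.38, 9.54, 9.48 and 9.45 in pseudopregnant uteri.

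Col6a3, the usual long chain, gave 9.39, 9.62, 9.43 and 9.54 in pregnant uteri and 8.94, 9.21, 9.40 and 9.36 in pseudopregnant uteri. Pseudopregnant replicate 1 was the lowest array, and pseudopregnant replicate 3 reached the pregnant range. Its difference was 0.27 ± 0.10 (SE, limma adjusted p = 0.15) and was 0.18 without pseudopregnant replicate 1. Col6a4 stood the other way, with 8.22, 8.07, 8.57 and 8.51 in pregnant uteri, against 8.65, 8.93, 8.63 and 8.83 in pseudopregnant uteri. The groups did not overlap, and the highest pregnant value, replicate 3, lay just under the lowest pseudopregnant value. Its difference was -0.42 ± 0.116 (SE), a 1.34-fold lower level, with an unadjusted p of 0.0048 and an adjusted p of 0.078 in limma. Over 18 alternatives the difference of Col6a4 stayed between -0.49 and -0.33 and its adjusted p between 0.065 and 0.18.

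Col6a5 and Col6a6, whose genes lie on chromosome 9 like Col6a4, differed by -0.05 and -0.10 (limma adjusted p = 0.68 and 0.38). A second, dimmer probe set of Col6a6 read 5.40, 4.90, 5.41 and 5.22 in pregnant against 5.38, 5.68, 5.53 and 5.42 in pseudopregnant uteri, a difference of -0.27 (limma adjusted p = 0.19). The second probe set of Col6a5 lay below the filter line.

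Partner chains were also compared by their difference within each array. These differences were not tested, since pairs were chosen with the values known. Col1a1 minus Col1a2 was 0.48 ± 0.048 in pregnant and 0.48 ± 0.035 in pseudopregnant uteri (SD, n = 4 each). Col4a1 minus Col4a2 was 0.27 ± 0.027 in pregnant and 0.28 ± 0.071 in pseudopregnant uteri, and these groups overlapped as well. Col5a2 minus Col5a1 was 0.36, 0.33, 0.40 and 0.53 in pregnant uteri, against 0.07, 0.25, 0.13 and 0.28 in pseudopregnant uteri. Here all pregnant arrays lay above all pseudopregnant ones.

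The widest gap of this kind was in type VI. Col6a3 minus Col6a4 was 1.17, 1.55, 0.87 and 1.03 in pregnant uteri, against 0.29, 0.28, 0.77 and 0.53 in pseudopregnant uteri, with means of 1.16 ± 0.291 and 0.47 ± 0.234 (SD, n = 4 each). The groups did not overlap, and their means differed by 0.69. Col6a3 minus Col6a6 was 2.98 ± 0.163 in pregnant and 2.61 ± 0.275 in pseudopregnant uteri, with an overlap through pseudopregnant replicate 3. Col6a3 minus Col6a5 was 4.15 to 4.45 in pregnant and 3.51 to 4.09 in pseudopregnant uteri, with no overlap and a difference of 0.32, and Col6a5 read near the filter line. Col6a1 minus Col6a2 was 0.06 ± 0.047 in pregnant and -0.02 ± 0.019 in pseudopregnant uteri and overlapped at 1 array. The size of such a difference within an array includes the brightness of the probes, and only its change between groups can be read.

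**Figure D4:**
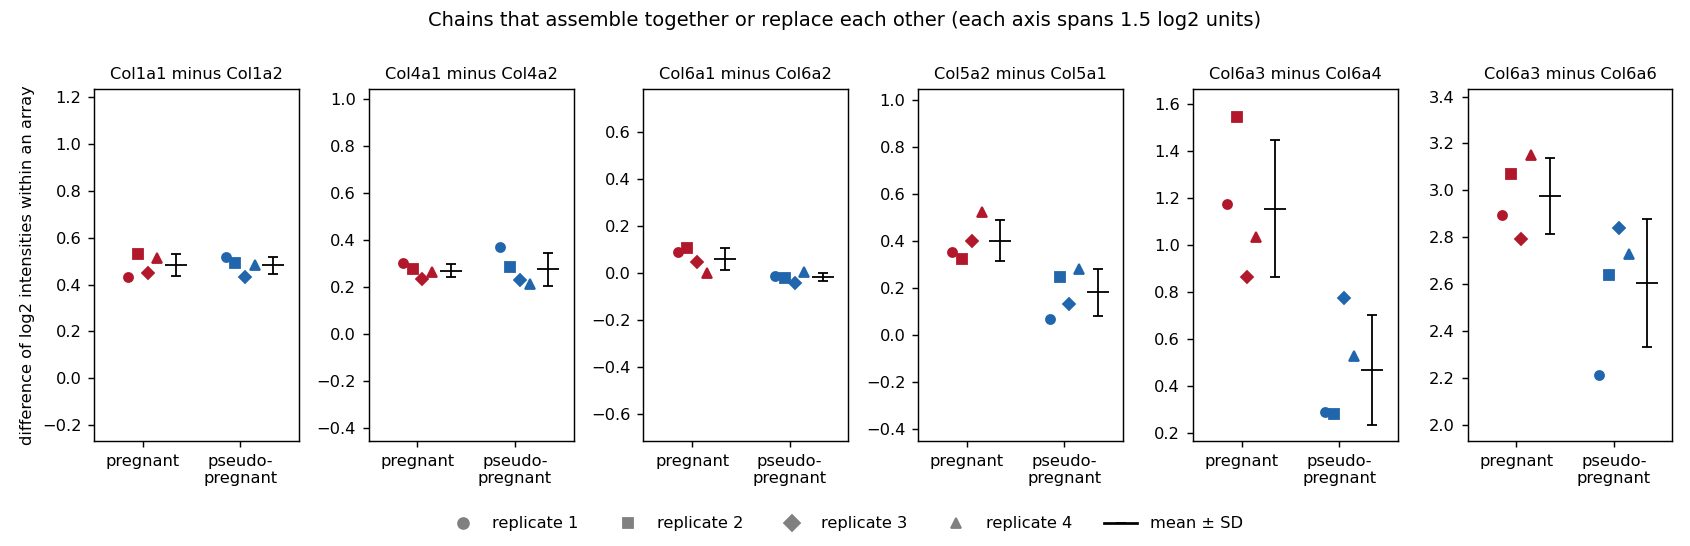
Each panel gives the difference of the log2 intensities of 2 collagen chains within an array, pregnant in red on the left and pseudopregnant in blue on the right, with mean ± SD (n = 4). Every panel spans the same height. Col1a1 minus Col1a2 and Col4a1 minus Col4a2 overlap between groups, while Col5a2 minus Col5a1 and Col6a3 minus Col6a4 do not.

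FACIT collagens sit on the surface of fibrils and link them to their surroundings. Of the 8 measured genes 0 passed the threshold, and the median was -0.04. In limma 5 of them had an unadjusted p under 0.05, 2 higher and 3 lower, where 23.7% of all probe sets did (14.3% higher, 9.43% lower). Col12a1 and Col14a1, which bind type I fibrils, were the 2 higher ones. Col14a1 had 9.11, 9.24, 8.86 and 9.01 in pregnant uteri, against 8.84, 8.86, 8.79 and 8.82 in pseudopregnant uteri. The pseudopregnant arrays lay close together, pregnant replicates 1, 2 and 4 stood above them and pregnant replicate 3 met the highest of them. The difference was 0.23 ± 0.077 (SE, limma adjusted p = 0.12). Col12a1 had 7.41, 7.94, 7.62 and 7.67 in pregnant uteri and 6.86, 7.31, 7.47 and 7.48 in pseudopregnant uteri, with pregnant replicate 2 highest and pseudopregnant replicate 1 lowest. It differed by 0.38 ± 0.148 (SE, limma adjusted p = 0.16), and its difference was 0.24 without pseudopregnant replicate 1 and 0.15 without both of these arrays.

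Col9a1, Col9a2 and Col9a3 together form type IX, the FACIT collagen of cartilage. Col9a3 had the smallest p of all collagen genes, with 6.58, 6.35, 6.42 and 6.30 in pregnant uteri and 6.85, 6.58, 6.75 and 6.67 in pseudopregnant uteri. Pregnant replicate 1 just met pseudopregnant replicate 2, and the other values were apart. The difference was -0.30 ± 0.079 (SE), a 1.23-fold lower level, with an unadjusted p of 0.0035 and an adjusted p of 0.070 in limma. Col9a1 differed by -0.16 (limma adjusted p = 0.19) and Col9a2 by -0.06 (0.65). Col20a1, a FACIT collagen with few known functions, had groups that did not overlap, 6.19, 6.05, 6.07 and 6.15 in pregnant against 6.41, 6.21, 6.33 and 6.48 in pseudopregnant uteri, and differed by -0.24 ± 0.067 (SE, limma adjusted p = 0.076). Col16a1 differed by -0.02 and Col22a1, which is found at muscle and tendon junctions, by 0.01, with intervals of -0.13 to 0.09 and -0.12 to 0.13.

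The multiplexins Col15a1 and Col18a1 anchor basement membranes to the matrix beneath, and the end piece of Col18a1 is known as endostatin. Col15a1 had 9.50, 9.14, 9.48 and 9.47 in pregnant uteri, against 9.40, 9.46, 9.42 and 9.44 in pseudopregnant uteri. Pregnant replicate 2 lay far below all 7 other arrays, which kept within 9.40 to 9.50. Its difference of -0.03 (limma adjusted p = 0.83) became 0.05 without that array. Col18a1 was alike, with 7.81, 7.29, 7.75 and 7.89 in pregnant uteri and 7.83, 7.84, 7.81 and 7.85 in pseudopregnant uteri, and its difference of -0.15 (limma adjusted p = 0.46) became -0.01 without pregnant replicate 2. On that array the 10 endothelial markers averaged 8.20 and the 11 epithelial markers 7.20, the lowest of the 8 arrays in both lists, and their part in these 2 genes was not tested.

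The transmembrane collagens are cell surface proteins, among them Col17a1 of the hemidesmosomes that hold epithelial cells to their basement membrane. All 4 measured genes had differences below 0 and 0 passed. Col23a1 had the smallest p, with 6.20, 6.19, 6.46 and 6.35 in pregnant uteri and 6.52, 6.44, 6.48 and 6.41 in pseudopregnant uteri, and differed by -0.16 ± 0.069 (SE, limma adjusted p = 0.19). Pregnant replicate 3 lay within the pseudopregnant range. Col13a1 differed by -0.11, Col17a1 by -0.09 and Col25a1 by -0.07, with adjusted p between 0.30 and 0.61. Col8a1 and Col8a2, which build the hexagonal sheets of vessel walls and the cornea, differed by -0.05 and 0.01, Col7a1 of the anchoring fibrils under skin by -0.08, and Col26a1 by -0.07 (limma adjusted p = 0.70, 0.94, 0.47 and 0.43).

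The direction of the differences went with brightness. Of the 15 collagen genes brighter than the median of the probe sets tested (mean log2 of 6.86), 12 had differences above 0, with a median of 0.13, against 58.4% of all brighter probe sets, with a median of 0.03. Of the 26 dimmer genes, 20 had differences below 0, with a median of -0.08, against 57.3% of all dimmer probe sets, with a median of -0.02. This split was made after the values were seen and was not tested. The brighter genes were Col1a1, Col1a2, Col3a1, Col5a1, Col5a2, Col4a1, Col4a2, Col6a1, Col6a2, Col6a3, Col6a4, Col12a1, Col14a1, Col15a1 and Col18a1, of which Col6a4, Col15a1 and Col18a1 had differences below 0. The cartilage chains of types II, IX and XI were among the dimmer ones. Between 17 and 18 of the 41 genes had differences above 0 with each array centred on its median, with a repeated quantile normalization and with cyclic loess, and the median over the genes then lay between -0.04 and -0.02. These counts cover all 41 genes and were not split by brightness, so they cannot show whether the split held.

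Collagen chains are modified, folded, trimmed and cross-linked by other proteins before they work, and these genes were read from lists. Of 22 measured genes for chain modification and folding, 0 passed the threshold and 9 were higher at an unadjusted p under 0.05 (limma), or 40.9%, where 14.3% of all probe sets were, with a median difference of 0.13. Of the 22 genes, 19 were brighter than the median of the probe sets tested, and 17 of these 19 had differences above 0, against 58.4% of all brighter probe sets. The 3 dimmer genes lay above 0 as well. Among all probe sets tested, 1551 of 8747 brighter and 948 of 8747 dimmer ones were higher at an unadjusted p under 0.05 (limma). The 14.3% thus understates the background of a list that is mostly bright. P3h1, which hydroxylates prolines of the chains in a complex with the isomerase Ppib, read 6.73 ± 0.092 in pregnant against 6.47 ± 0.076 in pseudopregnant uteri (SD, n = 4 each), with no overlap. Its difference was 0.26 ± 0.063 (SE, limma adjusted p = 0.060), and of 18 alternatives it passed with the stricter intensity filter alone (0.049). Ppib differed by 0.22 ± 0.065 (adjusted p = 0.093), Ctage5, which helps large procollagens leave the endoplasmic reticulum, by 0.25 ± 0.064 (0.067), and the folding isomerase Fkbp14 by 0.20 ± 0.065 (0.11), all in limma. Crtap, a further member of the complex of P3h1 and Ppib, differed by 0.04 and its groups overlapped (limma adjusted p = 0.69). The collagen chaperone Serpinh1 differed by 0.07 (limma adjusted p = 0.47).

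Of 10 measured genes that trim propeptides or cross-link chains, 0 passed the threshold and 3 were higher at an unadjusted p under 0.05 (limma), where 14.3% of all probe sets were, with a median of 0.11. These 3 were Adamts3, Pcolce2 and Loxl1. Lox, the main cross-linking oxidase, was not among them (unadjusted p = 0.053 in limma) and differed by 0.42 ± 0.192 (SE, limma adjusted p = 0.22). Its relative Loxl1 differed by 0.16 ± 0.066 (0.18), and Pcolce2, which speeds the removal of the end propeptide, by 0.33 ± 0.132 (0.17). Pregnant replicate 2 held the highest value of Lox, 8.78 where the other pregnant arrays read 7.86 to 8.03. Without it the difference was 0.21. The propeptidase Adamts3 differed by 0.31 ± 0.117 (SE, limma adjusted p = 0.15) in its brightest probe set, and by 0.18 without pregnant replicate 2, which read 8.07 against 7.49 to 7.64 on the other pregnant arrays. It had 16 probe sets, and the 15 measured ones all lay above 0, between 0.13 and 0.74, with adjusted p between 0.066 and 0.39.

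The list of fibril partners also holds genes of elastic fibres and microfibrils. Of its 24 measured genes 0 passed and 4 were higher at an unadjusted p under 0.05 (limma), with a median of 0.05. These 4 are 16.7% of the list, close to the 14.3% of all probe sets. Mfap5, a glycoprotein of elastic microfibrils, differed by 0.26 ± 0.072 (SE, adjusted p = 0.074), dermatopontin, Dpt, by 0.19 ± 0.059 (0.098), biglycan, Bgn, by 0.32 ± 0.118 (0.15) and elastin, Eln, by 0.14 ± 0.063 (0.20). Without pregnant replicate 2 the difference of Bgn was 0.21. Of 11 collagen receptors 0 passed and 1, Lair1, was higher at an unadjusted p under 0.05 (limma), or 9.09% where 14.3% of all probe sets were, with a median of 0.07. Lair1, an inhibitory receptor of leukocytes, differed by 0.33 ± 0.109 (SE, adjusted p = 0.11), the integrin chains Itga1 and Itga2 by 0.17 (0.26) and 0.17 (0.25), and the uptake receptor Mrc2 by 0.07 (0.54). Single arrays moved these 3 by over 1.5 times, to 0.11 for Itga1 and 0.04 for Mrc2 without pregnant replicate 2, to 0.10 for Itga1 and 0.03 for Mrc2 without pseudopregnant replicate 1, and to 0.11 for Itga2 without pregnant replicate 3.

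Over these 4 lists and that of the basement membrane partners, 1 of 82 measured genes passed the threshold. This is 1.22%, close to the 1.82% of all probe sets tested. That gene was Lamc1, among the basement membrane partners. Lamc1, the gamma chain of most laminins, read 9.10, 9.09, 9.06 and 9.14 in pregnant uteri, against 8.79, 8.91, 8.78 and 8.86 in pseudopregnant uteri. All pregnant values lay above all pseudopregnant values, and the gene rose by 0.26 ± 0.051 (SE, limma adjusted p = 0.038). Its call ended whichever single array was left out, with adjusted p between 0.055 and 0.098, while the difference stayed between 0.25 and 0.29. The other 14 measured members did not pass (limma, with 2 lower at an unadjusted p under 0.05), and the list's median was -0.02. Lama5 differed by -0.14 ± 0.050 (SE, adjusted p = 0.13), Smoc2 by -0.13 (0.19) and Lama3 by 0.34 (0.27). The Lama3 difference was 0.13 without pregnant replicate 2, which read 7.82 against 6.86 to 7.10 on the other pregnant arrays.

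**Figure D5:**
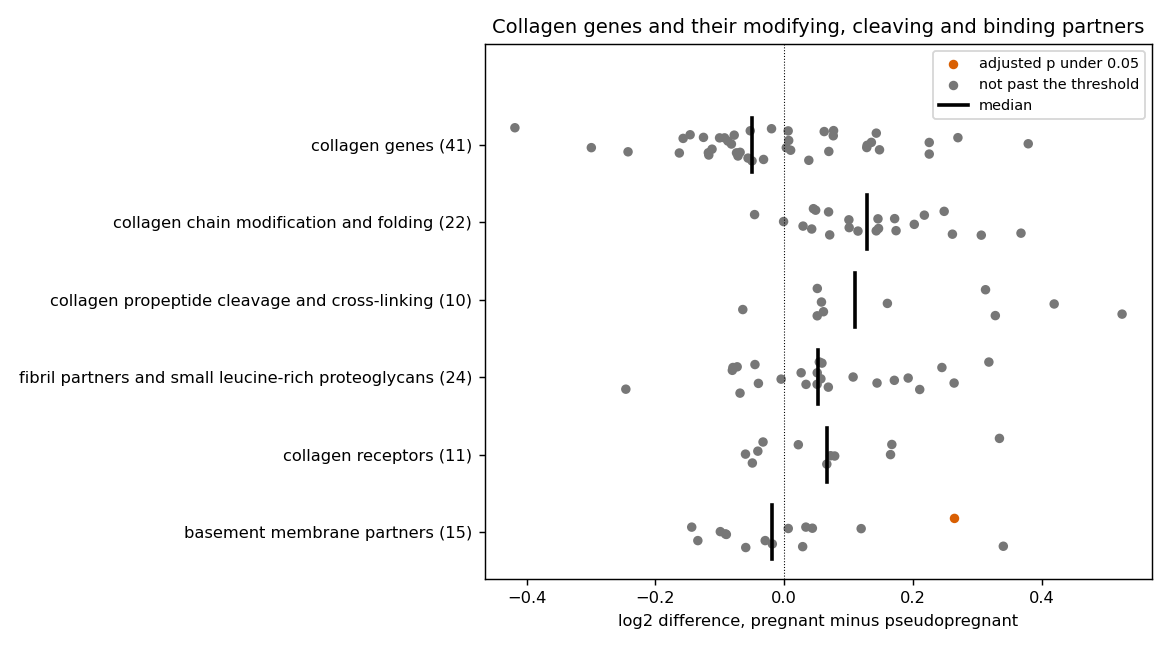
Each point is the log2 difference, pregnant minus pseudopregnant, of 1 measured gene of a list, with the number measured in brackets and a black line at the median. The collagen genes have a median of -0.05 and the modification and folding genes one of 0.13, and the only point past the adjusted threshold is Lamc1.

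Markers of the cells that make or surround collagen were read beside these values. Of all probe sets tested, 1.41% rose and 0.412% fell. At an unadjusted p under 0.05, 14.3% were higher and 9.43% lower (limma). The 11 stromal fibroblast markers averaged 9.15 to 9.21 in pregnant uteri, against 9.0 to 9.17 in pseudopregnant uteri, and 0 of them passed (in limma, 4 had an unadjusted p under 0.05, of which 3 were higher). The 10 smooth muscle markers averaged 9.48 to 9.63 in pregnant and 9.49 to 9.69 in pseudopregnant uteri. Among them 1, the muscle regulator Myocd, fell, with a difference of -0.27 ± 0.058 (SE, limma adjusted p = 0.0498). That call lies just under the threshold, and the calls of marker genes were not followed through the alternatives. In limma 4 of the 10, Myocd, Myh11, Lmod1 and Synpo2, were lower at an unadjusted p under 0.05, and 0 were higher. The differences of 4 others, Des, Cnn1, Actg2 and Tagln, lay above 0. Epithelial markers averaged 7.20 to 7.55 in pregnant and 7.44 to 7.87 in pseudopregnant uteri, and 0 of 11 passed, with 9 differences below 0 (in limma, 5 had an unadjusted p under 0.05, of which 4 were lower). Endothelial markers averaged 8.198 to 8.425 in pregnant and 8.434 to 8.569 in pseudopregnant uteri, so the groups did not overlap. Of these 10 markers 0 passed, all 10 differences lay below 0, and 3 were lower at an unadjusted p under 0.05 (limma). The 6 pericyte markers averaged 7.74 to 7.97 in pregnant and 7.71 to 7.98 in pseudopregnant uteri, and 0 passed (in limma, Rgs5, at 0.41, and Kcnj8, at 0.24, were higher at an unadjusted p under 0.05). The differences of the other 4 pericyte markers lay below 0, and the median of the list was -0.05. The 5 mesothelial markers averaged 6.47 to 6.92 in pregnant and 6.42 to 6.94 in pseudopregnant uteri, and 0 passed (limma, 0 at an unadjusted p under 0.05). Macrophage markers averaged 7.12 to 7.30 in pregnant, against 6.90 to 6.97 in pseudopregnant uteri, and 5 of 10 rose. Of their differences 9 lay above 0, and Cd14 lay below it, at -0.27 (limma adjusted p = 0.24). NK and lymphocyte markers averaged 6.34 to 6.84 in pregnant, against 5.70 to 6.17 in pseudopregnant uteri, and 5 of 7 rose. These 5 were Ncr1, Il2rb, Gzmb, Prf1 and Ptprc. The T cell genes Cd3e (-0.15) and Cd3g (0.04) did not pass (limma adjusted p = 0.30 and 0.90). Klrb1c, Cd3d and the B cell gene Cd79a lay below the filter line. The 13 cell cycle genes averaged 7.71 to 8.24 in pregnant, against 7.37 to 7.66 in pseudopregnant uteri, all 13 differences lay above 0, and 1, Pcna, rose, with a difference of 0.55 (limma adjusted p = 0.028). The part of these shifts in the collagen values was not tested. Of 7 blastocyst genes, Cdx2, Pou5f1, Nanog and Elf5 lay below the filter line on all 8 arrays. The other 3 were measured, and 0 passed in limma, where Eomes, which NK cells also express, had an unadjusted p under 0.05. Eomes read 5.41, 6.28, 5.69 and 5.75 in pregnant uteri, against 5.17, 4.79, 5.02 and 5.27 in pseudopregnant uteri, with no overlap and a difference of 0.72 (limma adjusted p = 0.057). It exceeded the filter line on 4 arrays, all of them pregnant, so it was tested only through the group where it read high. Its p and its lack of overlap therefore cannot be read as a test of a difference. Gata4 differed by -0.19 (0.28) and Sox17 by -0.36 (0.29).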

How the data were processed

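Total RNA of 8 mouse uteri, 4 pregnant and 4 pseudopregnant, was labelled with biotin and read on 1 array each. The intensities deposited by the authors are on a linear scale and were made with RMA, per the submitters' processing notes, with no version given. RMA quantile-normalizes arrays and compresses changes of dim genes. Here log2 was taken, a block of 6612 probe sets with the lowest numbers and no gene annotation, taken as controls, was left out, and 17494 of the other 28944 probe sets passed the filter (at least 4 of 8 arrays above the 40th percentile of their array). Platform gene symbols named the probe sets, and gene numbers of all 44 collagen genes matched the RefSeq table of GRCm38.p6. The group comparison was a two-sided moderated test (lmFit and eBayes, limma 3.58.1, R 4.3.3) with Benjamini-Hochberg adjustment over all 17494 probe sets. "Rose" and "fell" mean an adjusted p under 0.05. Correlations used exact permutation tests over the 8 arrays (Python 3.11.15, figures with matplotlib 3.10.9). The code was checked on simulated data. No batch is given in the labels. The number of arrays limits the precision.

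The members and lists were chosen with earlier results of these data known. Values of collagen genes on every array are given for a core of 13 genes, for any past the threshold, for those with an unadjusted p under 0.05 whose groups do not overlap, and for Col9a3, Col12a1 and Col23a1, of which Col12a1 was chosen after its values were seen. Partner genes have a difference, and Lamc1 its array values. Each chain type names its gene with the smallest p, each partner list its 4 genes with the smallest p, and any gene with an outlying array is named. Serpinh1, Crtap and the markers named singly were added after their values were seen. Alternatives covered normalization, the filter, array weights, the variance model, averaged probe sets, a replicate block and single arrays left out.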

Additional observations from a re-analysis of the deposited data

Results flagged for a closer look

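In 82 groups of 4 values of measured collagen genes, 6 held a value whose gap to the nearest other value, as a share of the group's range, exceeded Dixon's 95% critical value, and chance gives about 1 in 20 groups. Pregnant replicate 2 lay low for Col15a1, at 9.14 against 9.47 to 9.50 on the other pregnant arrays. Pregnant replicate 4 lay high for Col5a2, at 7.95 against 7.72 to 7.76. Pseudopregnant replicate 1 lay high for Col4a4 (5.98 against 5.77 to 5.79), for Col9a2 (6.50 against 6.40) and for Col22a1 (6.10 against 5.92 to 5.95). Pseudopregnant replicate 2 lay low for Col17a1, at 5.29 against 5.51 to 5.53. Among the 40 groups of the named partner genes 1 was of this kind, with Loxl1 at 7.03 in pseudopregnant replicate 3 against 7.22 to 7.26 on the other pseudopregnant arrays.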

How the results depend on the processing

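The count of collagen genes past the threshold was 0 under all 18 alternatives, with lowest adjusted p between 0.056 and 0.16. The number of all probe sets called, 319, was 54 without the intensity filter, 708 with the trend and robust variance model, 174 under a replicate block, and 40 without pregnant replicate 2 and pseudopregnant replicate 1 together, and lay between 40 and 246 without single arrays. The median collagen difference, -0.05, was -0.025 with cyclic loess, 0.0063 with the stricter filter (27 genes), -0.025 with array weights and -0.014 without those 2 arrays, and lay between -0.064 and -0.011 without single arrays. The sign turned for Col5a1 with a repeated quantile normalization (-0.021), cyclic loess (-0.020), array weights (-0.0042), without pregnant replicate 4 (-0.0072), pseudopregnant replicate 1 (-0.0093) or 2 (-0.010) and without both arrays (-0.011), within -0.010 to 0.029 over single arrays left out. It turned for Col15a1 with array weights (0.011), without pregnant replicate 2 (0.054) and without both arrays (0.044), within -0.066 to 0.054. It turned for Col22a1 without pregnant replicate 1 (-0.0079) or pseudopregnant replicate 2 (-0.0018), 3 (-0.012) or 4 (-0.0074), within -0.012 to 0.049. The cause was not tested. Without both arrays Col9a2 (0.0032) and Mrc2 (-0.0099) turned too. The other 412 of 427 values of named collagen genes kept direction and side. Of 359 values of partner genes, 346 did, and 11 ended the call of Lamc1, whose adjusted p was 0.079 without the filter and 0.068 under the replicate block. The block changed no call of a collagen gene. Whether the replicate numbers pair the arrays was not tested. The correlations of same-numbered deviations were 0.24, 0.016, -0.10 and 0.044, and 2 of 4 pregnant arrays correlated best with their own number. With 4 arrays a group, the 95% interval of Col12a1 ran from 0.05 to 0.71.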
